A study of Rattus norvegicus with 8 samples.

Results

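A set of 10 genes of calcium buffering and calcium sensing was followed across the somatic and process compartment of rat hippocampal neurons: Calb1, Calb2, Pvalb, Cabp1, Cabp7, Ncald, Hpcal1, Hpcal4, Hpca and Vsnl1. They are 10 of the 28909 gene symbols in the count table and were chosen by name, as rows whose symbol is on this list. Cabp7 was put on the list because of its fall after picrotoxin (PTX), so its PTX values are given as a description without a test, and the other members were chosen with earlier results of these data known. Of the 10 members, 9 passed the filter of more than 20 reads in at least 2 libraries, all but Pvalb.

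Primary hippocampal neurons of Sprague-Dawley rats were cultured on porous filters that retain the cell bodies on top, and RNA harvested from underneath is taken as that of processes which crossed the filter. On DIV18 to DIV20 (days in vitro) the cultures were exposed for 48 h to 100 µM PTX, a blocker of GABA-A receptors that raises network activity, or to the ethanol vehicle (mock treatment). Ribosome-depleted total RNA from somata and from processes was sequenced, which gave 4 conditions with 2 libraries each and 8 libraries in all. The sources do not state whether the 2 libraries of a condition came from separate cultures, so that p-values measure only the spread between these libraries, which may be technical.

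Libraries held between 12290890 and 18455662 counts. Mitochondrial rRNA took 21.1 to 24.8% of the counts in somata and 64.9 to 68.3% in processes, which left 9517542 to 11227599 counts outside the mitochondrial genome per somata library and 4702054 to 5491237 per process library. Levels are given as CPM, the counts of a gene relative to the library size after scaling by edgeR's TMM method. All 6 neuronal markers were detected in both compartments, and the cultures also held glial RNA. The summed level of 7 astrocyte markers was 3345 to 3730 CPM in somata and 11085 to 12779 CPM in processes of mock-treated cultures, while the microglial markers summed to at most 1.51 CPM and the endothelial markers to at most 0.466 CPM in any library. Of the 8 markers of the oligodendrocyte lineage, none passed the test for PTX in either compartment, while 1 neuronal and 1 astrocyte marker fell in somata and none of either list passed in processes. With library-size scaling no neuronal or astrocyte marker was called in somata, and with DESeq2 no neuronal marker was. The 6 neuronal markers summed to 1686 to 1863 CPM in mock-treated and 1535 to 1669 CPM in PTX-treated somata, and to 5159 to 5497 CPM and 3931 to 4632 CPM in the corresponding process libraries, without overlap. Map2 alone stood at 4693 and 4524 CPM in mock-treated and at 3935 and 3369 CPM in PTX-treated processes. Its levels in somata were 985 and 886.8 CPM after mock treatment and 860.8 and 812 CPM after PTX. The separation of these sums thus mainly follows Map2. The median log2 fold change of the 6 neuronal markers for PTX was -0.25 in somata and -0.39 in processes. In each compartment 5 of the 6 lay below the median change of all genes and 1 above it, so the lower values were not limited to Map2. After PTX the astrocyte sum was 2515 to 3489 CPM in somata and 9464 to 10595 CPM in processes, the latter below all mock-treated process libraries. Gfap made up most of the process sums, at 11110 and 9382 CPM after mock treatment and 7698 and 8799 CPM after PTX. In mock-treated somata Gfap stood at 1588 and 1781 CPM. The gap between compartments and the lower process sum after PTX thus mainly follow Gfap. For PTX in processes 5 of the 7 astrocyte markers lay below the median change of all genes and 2 above it. Slc1a3 went from 602.5 and 643 CPM to 844 and 804.7 CPM there. The part of these shifts in the values of the members was not tested.

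The proteins encoded by these genes bind calcium through EF-hands, a helix-loop-helix fold. Calbindin, calretinin and parvalbumin act mainly as mobile buffers that shape the size and spread of calcium transients, and in the hippocampus they are widely used as markers of interneuron classes, calbindin also of dentate granule and some pyramidal cells. CaBPs are relatives of calmodulin that regulate channels and other targets, whereas the visinin-like proteins, a branch of the neuronal calcium sensor family, expose a myristoyl group and move to membranes when calcium rises.

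RefSeq promoter windows in the rat build GRCr8 were found for 7 of the 10 members. GRCr8 is a later build than the Rnor_6.0 genome to which the reads were mapped. The 250 bases before the annotated start are shown for the member with the largest PTX fall, for the sensor that fell in both compartments and for the sensor that rose in somata. They lie at chr14:83832668-83832917 for Cabp7, chr5:146748359-146748608 for Hpca and chr6:39878557-39878806 for Vsnl1, all on the minus strand. The Cabp7 and Vsnl1 windows lie directly upstream of the annotated gene, and the Hpca window lies within the annotated span of Hpca, before an internal start. Capitals mark matches, on either strand, to the GC box GGGCGG or to the cAMP response element (CRE) half-site TGACG, and sequences run 5′ to 3′ along the gene's strand.
Cabp7: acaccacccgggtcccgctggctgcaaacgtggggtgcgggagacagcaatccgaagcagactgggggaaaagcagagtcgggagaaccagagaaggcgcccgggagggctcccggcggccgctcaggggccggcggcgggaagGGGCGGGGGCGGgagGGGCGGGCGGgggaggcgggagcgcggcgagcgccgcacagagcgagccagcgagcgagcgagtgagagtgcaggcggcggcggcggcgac
Hpca: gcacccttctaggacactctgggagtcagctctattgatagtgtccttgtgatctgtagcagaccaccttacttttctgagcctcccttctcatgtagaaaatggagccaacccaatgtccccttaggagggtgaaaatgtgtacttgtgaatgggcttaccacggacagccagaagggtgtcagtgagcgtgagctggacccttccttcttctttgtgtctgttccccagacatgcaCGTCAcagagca
Vsnl1: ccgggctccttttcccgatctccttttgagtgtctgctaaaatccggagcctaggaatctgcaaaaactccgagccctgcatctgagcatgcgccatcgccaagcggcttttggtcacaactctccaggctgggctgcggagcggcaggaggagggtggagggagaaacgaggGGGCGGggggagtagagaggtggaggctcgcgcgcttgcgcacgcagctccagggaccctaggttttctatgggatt

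The Cabp7 window held 4 GC boxes between 106 and 87 bases before the start and had a GC content of 76.0%, against a median of 51.2% over 33469 rat promoter windows of the same length. The Vsnl1 window held 1 GC box at 77 bases, and the Hpca window held 1 CRE half-site at 12 bases before the start and no GC box. Of all windows, 30.5% held a GC box and 18.2% a CRE half-site. Full CREs (TGACGTCA, which contains the half-site), TATA boxes (TATAAA) and AP-1 sites (TGANTCA) are held by 1.59, 12.9 and 6.34% of all windows, and none matched in the windows of the 7 members. A match describes the letters of the window and is not evidence of binding.

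**Figure D1:**
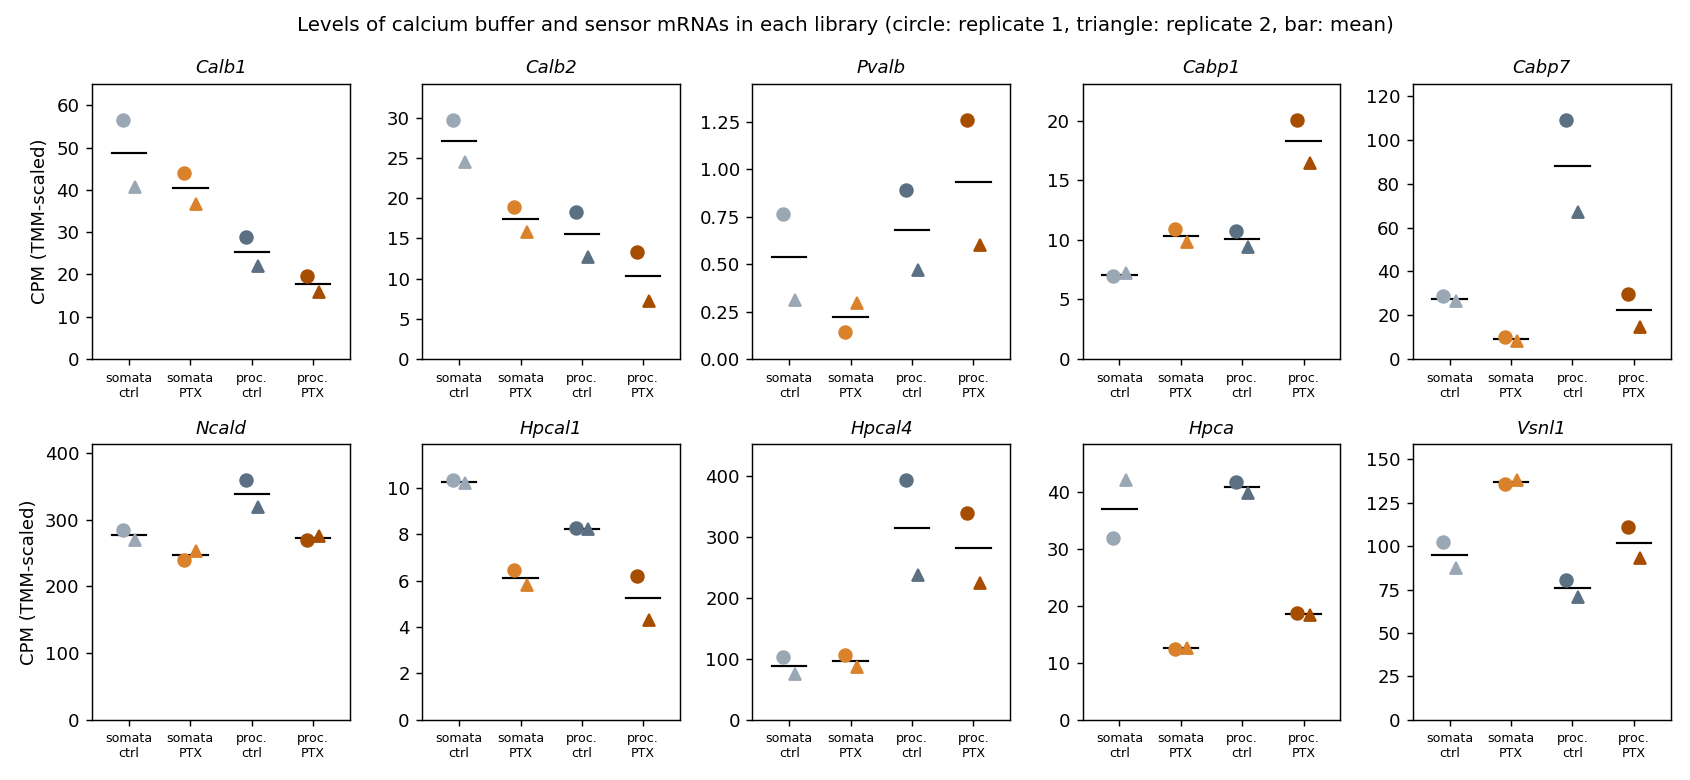
Level of each of the 10 members in CPM (vertical axis from 0, 1 panel per gene) in the 8 libraries, grouped by compartment and treatment, with circles for replicate 1, triangles for replicate 2 and bars for the mean. Cabp7 and Hpca are lower in PTX than in mock-treated libraries of both compartments, Cabp1 and Vsnl1 are higher, and Hpcal4 and Cabp7 are higher in processes than in somata.

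The first question was how 48 h of PTX changed these mRNAs in each compartment. Hpca fell in both compartments, by 1.56 on the log2 scale in somata and by 1.14 in processes. Hpcal1 fell and Vsnl1 rose in somata, and Cabp1 rose in processes. In somata 3 of the 8 members counted passed the test, 1 higher and 2 lower, where 2.09% of the 14309 tested genes were higher and 1.5% lower (299 and 214 genes, and 351 and 140 with library-size scaling). In processes 2 of 8 passed, 1 higher and 1 lower, beside 1.64% of all genes higher and 2.1% lower. With the replicate number, which pairs the libraries, as a block, 5 of 8 passed in somata and 7 of 8 in processes, and 2002 and 1601 genes in all against 513 and 535. Since the members were picked with PTX results in view, nothing is read from these shares. Tests are edgeR's quasi-likelihood test with Benjamini-Hochberg adjustment over all tested genes.

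Among the buffers, Calb1 (calbindin) stood at 56.7 and 40.7 CPM in mock-treated somata and at 43.9 and 36.8 CPM in PTX-treated somata. In processes it stood at 28.8 and 22.0 CPM after mock treatment and at 19.8 and 15.8 CPM after PTX. The groups overlapped in somata, whereas in processes both PTX libraries lay below both mock libraries. The log2 fold change was -0.27 (SE 0.178, adjusted p = 0.563) in somata and -0.52 (SE 0.210, adjusted p = 0.243) in processes. The 4 dentate granule cell markers in the file, of which Tdo2 was at 0 in every mock-treated library, summed to 16.7 to 18.7 CPM in mock-treated and 18.8 to 20.0 CPM in PTX-treated somata. In processes their sum was lower after PTX without overlap, at 15.5 to 16.5 CPM in mock-treated and 13.1 to 14.1 CPM in PTX-treated libraries. That lower sum follows Prox1, which went from 14.05 and 12.92 CPM to 8.727 and 9.853 CPM there. C1ql2 moved the other way in processes, from 2.453 and 1.527 CPM to 4.823 and 3.016 CPM. None of the 3 tested granule cell markers passed in either compartment, and the part of these markers in the values of Calb1 was not tested. Adding the replicate number as a block brought Calb1 in processes past the threshold (adjusted p = 0.00783).

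Calb2 (calretinin) stood at 29.8 and 24.5 CPM in mock-treated and at 18.9 and 15.8 CPM in PTX-treated somata. In processes its levels were 18.3 and 12.7 CPM after mock treatment and 13.3 and 7.24 CPM after PTX. The somata groups were separate, the process groups overlapped, and in each compartment replicate 2 lay below replicate 1 under both treatments. The log2 fold change was -0.64 (SE 0.222, adjusted p = 0.174) in somata and -0.61 (SE 0.274, adjusted p = 0.300) in processes. With the replicate block both passed, at adjusted p = 0.000326 in somata and 0.0189 in processes. In bulk RNA, fewer cells of a type and less RNA per cell cannot be told apart.

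Pvalb (parvalbumin), the marker of fast-spiking interneurons, was close to the detection limit. It had 18 and 8 reads in mock-treated and 4 and 7 in PTX-treated somata, and 8 and 4 reads in mock-treated and 11 and 6 in PTX-treated processes, where 3 reads were taken as the floor of a library. It did not pass the filter, so no fold change is given for it and a difference was not tested.

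Other markers of GABAergic interneurons were at higher levels after PTX. The summed level of the 11 listed interneuron markers, which do not include these buffers, lay between 549 and 628 CPM in mock-treated and between 674 and 765 CPM in PTX-treated somata. Gad1 and Gad2, the GABA-synthesising enzymes, rose in somata by 0.82 (adjusted p = 0.0247) and 0.92 (adjusted p = 0.0328) on the log2 scale, and the other 8 tested markers did not pass. Both calls were lost without mock-treated somata library 2 (adjusted p = 0.215 and 0.277) or PTX-treated somata library 1 (0.186 and 0.215). In processes the sum was 306 to 348 CPM after mock treatment and 404 to 462 CPM after PTX, and of the 10 tested only Gad2 passed (log2 fold change 0.92, adjusted p = 0.0384), a call lost without any 1 of the 4 process libraries (0.0524 to 0.222). The part of these shifts in the values of Calb1 and Calb2 was not tested.

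Of the CaBPs, Cabp1 (caldendrin), which binds ion channels and the IP3 receptor, stood at 6.97 and 7.21 CPM in mock-treated and at 10.9 and 9.82 CPM in PTX-treated somata. Its levels in processes were 10.7 and 9.39 CPM after mock treatment and 20.1 and 16.5 CPM after PTX. Every PTX library lay above every mock library of its compartment. Cabp1 rose 1.81-fold in processes (log2 fold change 0.86, SE 0.163, adjusted p = 0.0187). In somata its log2 fold change of 0.55 (SE 0.148) did not pass the test (adjusted p = 0.0752), but did with the replicate block (adjusted p = 0.00661). The call in processes was lost when mock-treated process library 1 or 2 or PTX-treated process library 1 was left out (adjusted p = 0.0806, 0.0835 and 0.111).

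Cabp7 (calneuron 2), a Golgi-associated sensor that inhibits phosphatidylinositol 4-kinase at resting calcium, had the largest PTX differences of the 9 members. It stood at 28.6 and 26.6 CPM in mock-treated and at 10.2 and 8.09 CPM in PTX-treated somata. In processes it stood at 109 and 66.9 CPM after mock treatment, from 980 and 570 reads, and at 29.7 and 14.7 CPM after PTX, from 259 and 146 reads. The groups did not overlap in either compartment, and in all 4 conditions replicate 1 was higher than replicate 2. The PTX level was 3.01-fold lower in somata (log2 fold change -1.59, SE 0.291) and 4.0-fold lower in processes (log2 fold change -2.00, SE 0.295). Within replicate 1 the log2 differences were -1.48 in somata and -1.87 in processes, and within replicate 2 they were -1.70 and -2.18. With 1 library left out in turn, the process value ranged from -2.59, without PTX-treated process library 1, to -1.57. By size of fall among all tested genes Cabp7 ranked 23 in somata and 34 in processes.

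Among the visinin-like sensors, Hpca (hippocalcin), which is abundant in hippocampal pyramidal cells and has a role in the slow afterhyperpolarisation and in long-term depression, stood at 32.0 and 42.1 CPM in mock-treated and at 12.5 and 12.7 CPM in PTX-treated somata. Its levels in processes were 41.9 and 39.9 CPM after mock treatment and 18.7 and 18.4 CPM after PTX. The groups were separate in both compartments, and the PTX libraries lay close together. Hpca was 2.95-fold lower in somata (log2 fold change -1.56, SE 0.139, adjusted p = 0.00028) and 2.21-fold lower in processes (log2 fold change -1.14, SE 0.149, adjusted p = 0.00392). Both calls held with each of the 8 libraries left out in turn.

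Markers of glutamatergic neurons moved in part with Hpca. Of 6 listed markers, 2 fell in somata, and 3 fell and 1 rose in processes. Neurod6, a transcription factor of pyramidal neurons, fell by 1.64 (adjusted p = 0.000785) in somata and by 1.34 (adjusted p = 0.00818) in processes on the log2 scale, and Camk2a, the postsynaptic kinase subunit, by 1.13 (adjusted p = 0.00305) and 1.45 (adjusted p = 0.00165). The call for Neurod6 in processes was lost without mock-treated process library 1 (0.0859) or PTX-treated process library 2 (0.0718). The summed level of the 6 markers went from 425 to 441 CPM in mock-treated somata to 284 to 307 CPM after PTX. Its part in the values of Hpca was not tested.

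Hpcal1 stood at 10.3 and 10.2 CPM in mock-treated and at 6.47 and 5.80 CPM in PTX-treated somata. In processes it stood at 8.25 and 8.22 CPM after mock treatment and at 6.20 and 4.32 CPM after PTX. This sensor, closely related to hippocalcin, was lower in every PTX library than in every mock library of its compartment. It fell in somata by 0.74 on the log2 scale (SE 0.166, adjusted p = 0.0344), and its log2 fold change in processes was -0.66 (SE 0.208, adjusted p = 0.128, with the replicate block 0.0426). The somata call was lost without any 1 of the 4 somata libraries (adjusted p = 0.136 to 0.195), and with DESeq2 (0.0747) or library-size scaling (0.0568).

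Vsnl1 (VILIP-1), which affects cyclic nucleotide signalling and receptor trafficking, moved the other way. It stood at 103 and 87.6 CPM in mock-treated and at 136 and 138 CPM in PTX-treated somata. Its levels in processes were 80.6 and 70.9 CPM after mock treatment and 111 and 92.9 CPM after PTX. PTX libraries were above mock libraries without overlap in both compartments. Vsnl1 rose 1.44-fold in somata (log2 fold change 0.52, SE 0.126, adjusted p = 0.0472), a call that sat at the threshold and was lost without any 1 of the 4 somata libraries (adjusted p = 0.0885 to 0.377) and with upper-quartile scaling (0.0550). In processes the log2 fold change was 0.43 (SE 0.131, adjusted p = 0.113, with the replicate block 0.00514).

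The other 2 visinin-like sensors did not pass the test in either compartment. Ncald (neurocalcin delta) stood at 285 and 270.3 CPM in mock-treated and 240.3 and 253 CPM in PTX-treated somata, and at 359 and 318 CPM in mock-treated and 269 and 275 CPM in PTX-treated processes. Its log2 fold change was -0.17 (SE 0.111, adjusted p = 0.557) in somata and -0.32 (SE 0.112, adjusted p = 0.178, with the replicate block 0.0326) in processes. Hpcal4 (VILIP-2), which modulates presynaptic calcium channels, stood at 103 and 75.0 CPM in mock-treated and 107 and 86.0 CPM in PTX-treated somata. In processes it stood at 393 and 237 CPM after mock treatment and at 339 and 225 CPM after PTX. The Hpcal4 groups overlapped in both compartments, and the 95% interval of its log2 fold change was -0.45 to 0.69 in somata and -0.73 to 0.40 in processes.

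**Figure D2:**
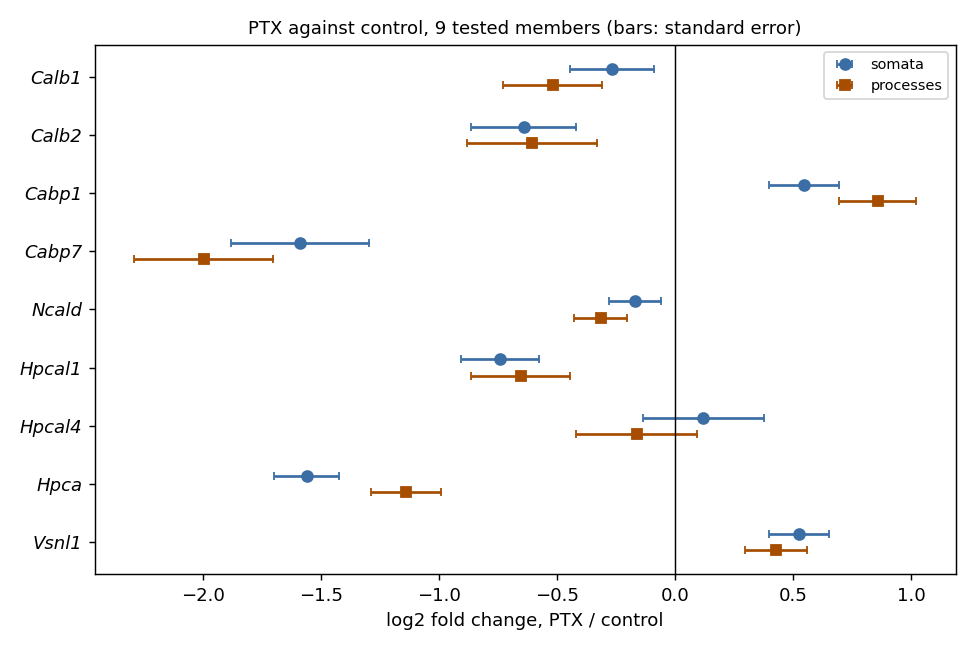
Log2 fold change of PTX over mock treatment (horizontal axis, bars are standard errors) for the 9 members that passed the filter, in somata (circles) and processes (squares), with 2 libraries per condition. Hpca lies at -1.56 and -1.14, Cabp7 at -1.59 and -2.00, and Cabp1 and Vsnl1 lie above 0 in both compartments.

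Whether PTX acted differently on these mRNAs in the 2 compartments was tested as the log2 fold change in processes less the one in somata. None of the 8 members counted passed, and 0% of the 14309 genes did by edgeR's quasi-likelihood test, although 572 genes had an unadjusted p under 0.05 and DESeq2, the likelihood ratio test and the replicate block called 4, 4 and 15 genes, and the fit with no filter 10. No member had an unadjusted p under 0.05. The largest difference among the 8 was that of Hpca, at 0.42 on the log2 scale (SE 0.202, 95% interval -0.03 to 0.87, adjusted p = 1.0). For Cabp1 the interval ran from -0.18 to 0.80, for Vsnl1 from -0.50 to 0.30 and for Hpcal1 from -0.50 to 0.68. Differences of these sizes therefore could not be told from 0 with 2 libraries per condition. For Cabp7 the difference was -0.41 (SE 0.411), given without a test.

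The second question was where these mRNAs lay. In mock-treated cultures Hpcal4 and Cabp7 were 3.55-fold and 3.19-fold higher in processes than in somata, and Calb1 and Calb2 were lower there. Of the 9 members 5 passed the test, 3 higher and 2 lower in processes, where 25.8% of all tested genes were higher and 21.9% lower. These values depend on scaling in a way the PTX values do not. With TMM the median over all tested genes was -0.05 on the log2 scale, with upper-quartile factors -0.25 and with library size alone -1.86, and the mitochondrial rRNA share differs between the compartments as given above. All 9 members stayed on the same side of that median under these scalings and with DESeq2's factors, but with library size alone the values of Cabp1, Cabp7, Ncald, Hpcal4 and Hpca turned negative, and with upper-quartile factors that of Hpca did. The calls over all genes then split into 191 higher and 13271 lower with library size alone and 2750 and 4704 with upper-quartile factors, against 3688 and 3135, and those of the members into 0 and 7 and into 2 and 4. In the compartment comparison, higher and lower are therefore meant relative to the typical gene.

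Hpcal4 led the members in processes (log2 fold change 1.83, SE 0.264, adjusted p = 0.000248), with both process libraries above both somata libraries. It was 1.88 above the median of all genes on the log2 scale. Cabp7 followed (log2 fold change 1.68, SE 0.277, adjusted p = 0.000617), and Cabp1 was 1.42-fold higher (log2 fold change 0.50, SE 0.164, adjusted p = 0.0267). These mock libraries are the same that entered the PTX comparison. Cabp7 was chosen by its PTX fall in them, so its value, rank and p-value here may be affected by that choice. The same holds for Cabp7 in PTX-treated cultures. The call for Cabp1 was lost with DESeq2 (adjusted p = 0.0698), with upper-quartile factors (0.140) and without mock-treated somata library 1 or 2 or mock-treated process library 1 (0.104, 0.0799 and 0.145).

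Calb1 was 1.92-fold lower in processes (log2 fold change -0.94, SE 0.192, adjusted p = 0.00239), and Calb2 was 1.75-fold lower (log2 fold change -0.81, SE 0.241, adjusted p = 0.0184). For Calb2 the call was lost without mock-treated somata library 1 (adjusted p = 0.0976) or process library 2 (0.15). Of the 10 tested interneuron markers 6 were also lower in processes and none was higher, Gad1 by 0.93 (adjusted p = 0.00169) and Gad2 by 0.73 (adjusted p = 0.0150) on the log2 scale, the latter not without mock-treated somata library 1 (0.128) or process library 2 (0.12). Their part in the values of the buffers was not tested. Ncald at 0.29 (adjusted p = 0.0549) and Vsnl1 at -0.33 (adjusted p = 0.0572) did not pass, and both did with the replicate block (0.0116 and 0.00582). Hpcal1 at -0.32 (95% interval -0.72 to 0.08) and Hpca at 0.14 (95% interval -0.16 to 0.44) did not pass either.

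In PTX-treated cultures 7 of the 9 members passed, 4 higher and 3 lower in processes, beside 25.7% of all genes higher and 24% lower. With library size alone the median of all genes was -1.87, and the values of Cabp1, Cabp7, Ncald, Hpcal4 and Hpca were again negative, with 0 members called higher and 8 lower. Hpcal4 was 2.92-fold higher (log2 fold change 1.54, adjusted p = 0.000673) and Cabp7 2.41-fold higher (log2 fold change 1.27, SE 0.309, adjusted p = 0.00611). The Cabp7 call was lost without PTX-treated process library 1, at a log2 fold change of 0.68 and an adjusted p of 0.0915. Cabp1 was 1.76-fold higher (log2 fold change 0.82, adjusted p = 0.00111) and Hpca 1.48-fold higher (log2 fold change 0.56, adjusted p = 0.00975). That Hpca passed here and not in mock-treated cultures does not show a difference, since the interaction did not pass.

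Lower in processes after PTX were Calb1 (log2 fold change -1.19, adjusted p = 0.000612), Calb2 (-0.77, adjusted p = 0.0275) and Vsnl1 (-0.43, adjusted p = 0.0174). The Calb2 call was lost without PTX-treated somata library 1 (adjusted p = 0.121) or process library 2 (0.247), and that of Vsnl1 was lost without PTX-treated somata library 1 or 2 (0.0650 and 0.0702) or process library 2 (0.136). Ncald at 0.14 and Hpcal1 at -0.23 did not pass (adjusted p = 0.315 and 0.343).

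**Figure D3:**
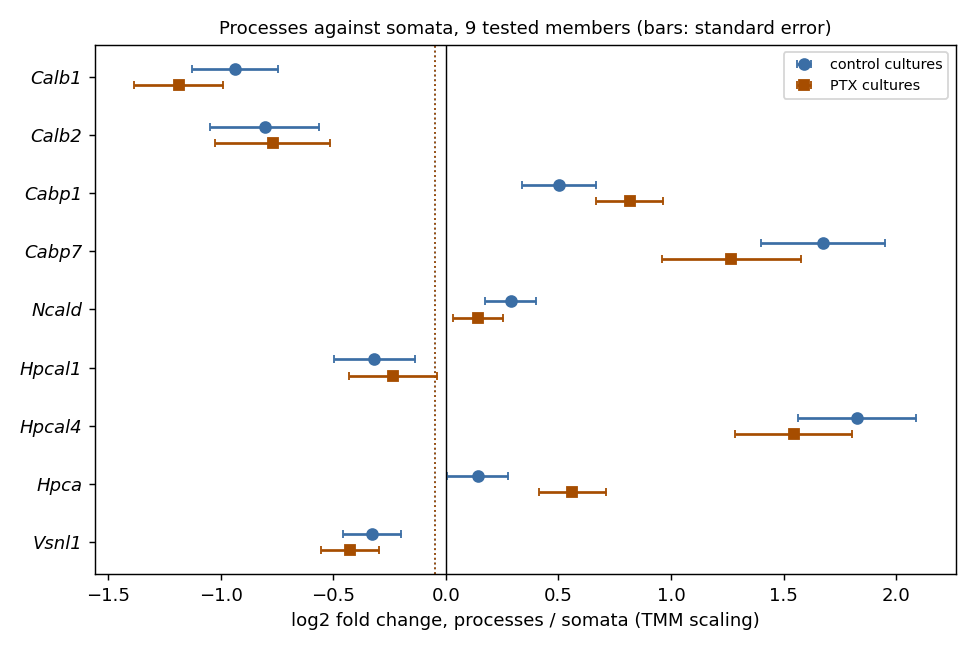
Log2 fold change of processes over somata (horizontal axis, bars are standard errors) for the 9 tested members in mock-treated and in PTX-treated cultures, after TMM scaling, with 2 libraries per condition and dotted lines at the median of all tested genes (-0.05). Hpcal4 and Cabp7 lie farthest to the right, at 1.83 and 1.68 in mock-treated cultures, and Calb1 and Calb2 lie on the left at -0.94 and -0.81.

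The rest of the EF-hand family and its partners was followed in 7 lists of 54 genes, of which 42 were tested. After PTX 2 of the 42 fell and none rose in each compartment, beside the 1.5% lower and 2.09% higher of all genes in somata and 2.1% and 1.64% in processes, with a median log2 fold change of -0.05 in somata and -0.07 in processes. With library-size scaling 1 of the 42, an S100 gene, was called higher in somata. Kcnip2, a calcium sensor that binds A-type potassium channels and belongs to the same sensor family as hippocalcin, stood at 50.3 and 49.4 CPM in mock-treated and 27.8 and 29.9 CPM in PTX-treated somata. Its levels in processes were 75.3 and 60.2 CPM after mock treatment and 31.8 and 37.8 CPM after PTX. Without overlap in either compartment, it fell by 0.79 in somata (SE 0.131, adjusted p = 0.0086) and by 0.96 in processes (SE 0.138, adjusted p = 0.00514) on the log2 scale. The call in somata was lost without mock-treated somata library 1 or 2 or PTX-treated somata library 1 (adjusted p = 0.0543, 0.0603 and 0.0780), and that in processes without mock-treated process library 1 (0.0506).

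Necab1, an EF-hand protein found in subsets of neurons, was the other. It stood at 19.9 and 23.2 CPM in mock-treated and 9.89 and 11.3 CPM in PTX-treated somata, and at 13.7 and 14.9 CPM in mock-treated and 6.09 and 7.84 CPM in PTX-treated processes. It fell by 1.02 (SE 0.148, adjusted p = 0.00425) in somata and by 1.03 (SE 0.183, adjusted p = 0.0138) in processes. The somata call was lost without mock-treated somata library 2 (0.0561), and the process call without mock-treated process library 1 or 2 or PTX-treated process library 1 (0.0707, 0.0574 and 0.0973). None of the 4 calmodulin-binding regulators, 9 other cytosolic EF-hand proteins, 6 S100 proteins and 10 secretory-pathway proteins tested passed for PTX in either compartment.

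Between compartments of mock-treated cultures, 23 of the 42 were higher and 4 lower in processes, beside 25.8% higher and 21.9% lower of all genes, with a median log2 fold change of 0.45 against -0.05 over all genes. With library size alone none was higher and 37 were lower, with a median of -1.37 against -1.86 over all genes, and with upper-quartile factors 15 were higher and 6 lower. The log2 fold changes of single genes are those after TMM, and with library size alone those of the list genes named as higher were negative, other than S100b and S100a13 at 0.36 and 0.23. Calm3 (1.02) was higher and Calm2 (-0.37) was lower, both of which encode calmodulin. Pcp4, a small regulator of calmodulin, was higher by 0.90. Of the other calcium sensors 3 of 5 were higher, led by Ncs1 (1.80, adjusted p = 5.4e-06), which acts in neurotransmitter release, and Kcnip3 (0.45). Of the CaBP and NECAB proteins Caln1 (1.11), the calneuron closest to Cabp7, and Necab2 (0.45) were higher, and Cabp4 (-1.40) and Necab1 (-0.59) were lower, Cabp4 from a mean of 1.81 CPM in somata. The calls for Calm2, Kcnip3, Necab2, Cabp4, Necab1 and Scgn were each lost without 1 or more libraries. The highest adjusted p was 0.129 for Calm2, 0.240 for Cabp4 and 0.142 for Scgn, each without mock-treated process library 2, 0.162 for Necab2 without mock-treated process library 1, and 0.160 for Kcnip3 and 0.0735 for Necab1 without mock-treated somata library 2. Kcnip3 was also lost with DESeq2 (0.0563) and upper-quartile factors (0.170), Necab2 with upper-quartile factors (0.151), and Cabp4 with DESeq2 (0.105) and with only the libraries compared (0.0507).

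Among cytosolic EF-hand proteins Cib2 (1.27) and Cib1 (0.97), both calcium- and integrin-binding proteins, led the 5 that were higher, and Scgn (secretagogin, -2.21) was the 1 that was lower, from a mean of 1.36 CPM in somata. All 6 tested S100 proteins were higher, led by S100b (2.16, adjusted p = 1.9e-06) and S100a13 (2.03). S100b is made mainly by astrocytes in the brain, and the astrocyte filament gene Gfap was higher in processes by 2.60 (adjusted p = 3.2e-06), and by 0.79 with library size alone. Of the 7 astrocyte markers 3 were higher and 2 lower in processes, and their part in the S100 values was not tested. Of the 10 secretory-pathway proteins 4 were higher, led by Nucb2 (1.19) and Calu (0.71). In PTX-treated cultures 22 of the 42 were higher and 3 lower, beside 25.7% and 24% of all genes, with a median of 0.55.

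**Figure D4:**
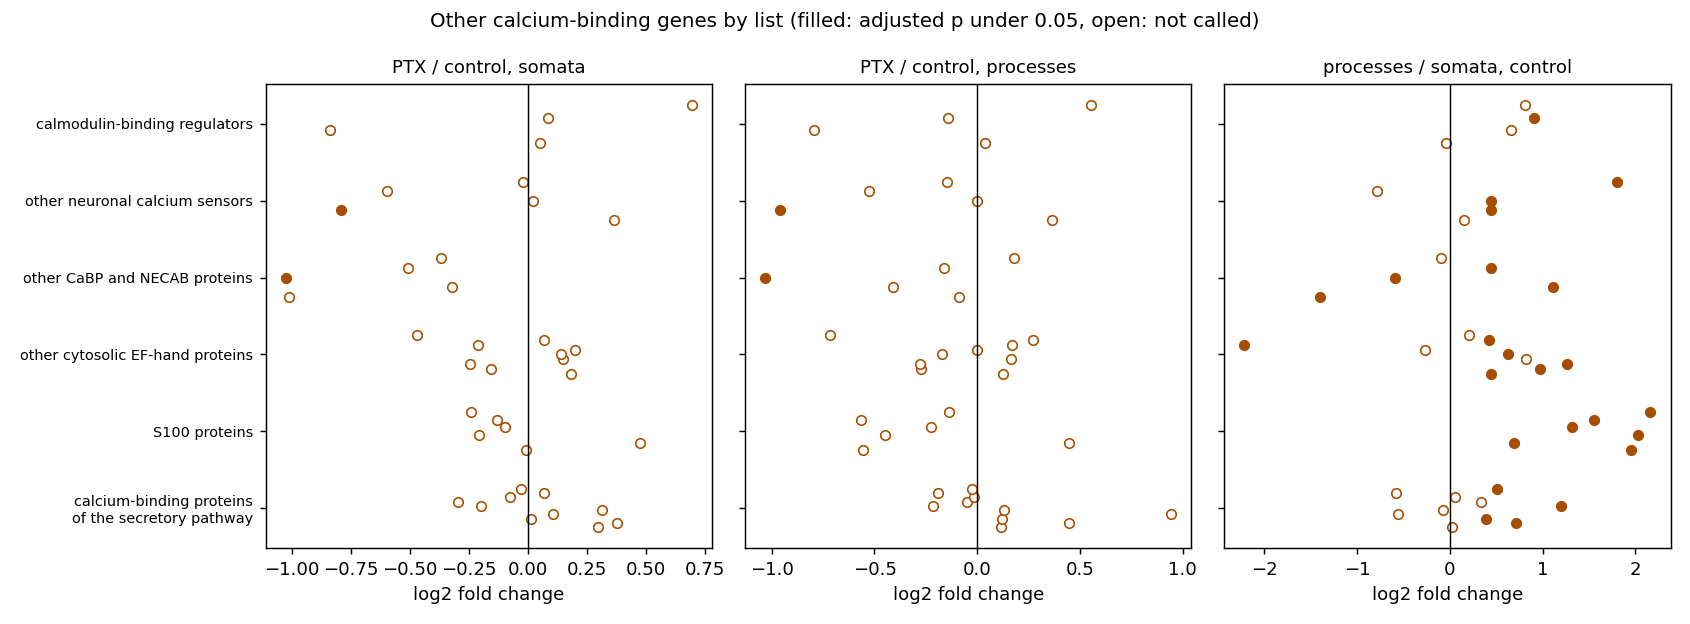
Log2 fold change (horizontal axis) of each tested gene of 6 of the lists of other calcium-binding genes (1 row per list), with filled points for adjusted p under 0.05 and open points for the rest. For PTX 2 genes are filled in each compartment, Kcnip2 and Necab1, while for processes over somata in mock-treated cultures most filled points lie on the right, S100b farthest at 2.16.

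Over the 8 libraries the genes whose log2 CPM followed that of Cabp7 most closely, out of 10207 genes at a mean of 5 CPM or more, were Plch2 (Pearson r = 0.990), Cox19 (0.987), Gse1 (0.981), LOC100911830 (0.979) and Ppp3cb (0.978). Plch2 encodes a phospholipase C of the eta class and Ppp3cb a catalytic subunit of calcineurin. The 8 points share 4 conditions and the same libraries, so r describes a common order of conditions. The size of the change differed, since the PTX log2 fold change in processes was -1.74 for Plch2 and -0.26 for Cox19.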

How the data were processed

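Per the methods and the labels, reads were trimmed with Trimmomatic and mapped by the authors with Subread subjunc, although the submitters' processing notes name STAR. Reads on Ensembl genes were then counted with featureCounts and summed by symbol. The deposited values are raw counts for 28909 symbols in 8 libraries. How reads shared by gene copies or by overlapping and antisense genes were assigned is not given in the sources used here, so such reads are of uncertain origin. The authors' tables of their PTX comparisons, which hold fold changes, log2 CPM and p-values, were not used.

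The filter kept 14309 genes, those for which 2 or more libraries exceeded 20 reads. In edgeR 4.0.16 (R 4.3.3) the 8 libraries were scaled by TMM and fitted with 1 coefficient per condition, and 5 contrasts were tested with glmQLFTest and Benjamini-Hochberg adjustment at 0.05. Log2 CPM used a prior count of 2, and standard errors were obtained as the log2 fold change over the square root of F. Libraries held 12290890 to 18455662 counts. On simulated counts the test recovered most changed genes with the right sign, and its share of false calls lay somewhat above the nominal level, as did that of the likelihood ratio test to a larger extent, so that adjusted p-values close to 0.05 may be too small. Results were recomputed with DESeq2 1.42.0, the likelihood ratio test, library-size and upper-quartile scaling, 2 other filters, only the libraries compared, the replicate block and each library left out.

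The replicate numbers of the labels pair the libraries: the difference between the replicates across genes correlated between each of the 6 pairs of conditions, with r from 0.27 to 0.54. The sources do not say what the numbers mark.

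Members and lists were chosen with earlier results of these data known. Other genes are named when they are, in a list and contrast, among the 2 called genes with the largest change in each direction. Gad1, Gad2, Neurod6, Camk2a, Gfap, Slc1a3, Map2, Prox1 and C1ql2 were named from the marker lists after their values were seen. Promoter windows came from RefSeq (GRCr8), a later build than the Rnor_6.0 the submitters name, and were matched by symbol. Some single genes are not reported here.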

Additional observations from a re-analysis of the deposited data

Results flagged for a closer look

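Necab3, an EF-hand protein of the NECAB family, was picked out because both PTX libraries moved down in somata and up in processes, and it is named here after its values were seen. It stood at 11.6 and 10.7 CPM in mock-treated and 8.38 and 8.93 CPM in PTX-treated somata, and at 10.5 and 10.3 CPM in mock-treated and 11.1 and 12.4 CPM in PTX-treated processes. The log2 fold change was -0.37 in somata (adjusted p = 0.190) and 0.18 in processes (adjusted p = 0.634) by edgeR's quasi-likelihood test, so neither passed. The difference between the 2 effects was 0.545 on the log2 scale (SE 0.202) and did not pass after adjustment over all genes. Necab3 was picked by these same values, so they are a description only. How many of all genes moved in opposite directions in this way was not counted.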

How the results depend on the processing

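Of the 8 members counted for PTX, 3 passed in somata and 2 in processes. With the replicate block these became 5 and 7, with no filter 5 and 5, and with 1 library left out 1 to 3 and 1 to 2. The block added calls and removed none of those for PTX, and the cause of the change with the filter was not tested. Over all genes, 513 passed in somata and 535 in processes, against 972 and 949 with the likelihood ratio test, 2002 and 1601 with the block, 1141 and 1129 with no filter, and, for processes, 298 with only the libraries compared. With 1 library left out they ranged from 117 to 568 and from 97 to 478. Between compartments of mock-treated cultures 5 of 9 passed, and 3 to 6 with 1 library left out. With library size alone the processes over somata log2 values turned to -1.31 (Cabp1), -0.16 (Cabp7), -1.53 (Ncald), -0.0035 (Hpcal4) and -1.67 (Hpca) in mock-treated cultures, and to -1.01, -0.57, -1.68, -0.30 and -1.26 in PTX-treated cultures. By the construction of that scaling, the median of all genes moved with them. With upper-quartile factors Hpca turned to -0.0614 in mock-treated and Ncald to -0.0359 in PTX-treated cultures. Leaving out 1 library changed the sign of some uncalled values, with ranges of -0.10 to 0.36 (Hpcal4) for PTX in somata and -0.49 to 0.25 (Hpcal4) in processes. For the difference between compartments the ranges were -0.46 to 0.42 (Calb2), -0.995 to 0.0229 (Cabp7), -0.19 to 0.33 (Hpcal1), -0.61 to 0.13 (Hpcal4) and -0.23 to 0.0259 (Vsnl1). For processes over somata they were -0.0406 to 0.35 (Hpca, mock) and -0.51 to 0.0131 (Hpcal1, PTX). Where a library was left out, the remaining one was assumed to vary like the other conditions. Process libraries held fewer counts outside the mitochondrial genome than somata libraries.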
